A study of Pinellia ternata with 12 samples.

Results

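The WRKY unigenes TRINITY_DN54601_c2_g2, TRINITY_DN69827_c0_g1 and TRINITY_DN66719_c0_g1 are 3 of the 208217 unigenes assembled from leaf RNA of Pinellia ternata, a medicinal herb of the arum family. They were chosen because the study placed them in the WRKY family in its heat map of transcription factors and because 2 of them were lower and 1 was higher under heat. Their difference between heat and control was therefore part of the choice, as were their levels. Both are given here as a description without a test. The WRKY assignment rests on that heat map. The study counts more WRKY unigenes than these 3, and the rest were not analysed here.

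Leaves came from seedlings grown at 25 ℃ with 16 h of light and 8 h of darkness. The 3 control libraries were taken at day 0 with 0 h of heat, and the 3 heat libraries at day 1 after 24 h at 40 ℃. The treatment tag calls all 6 libraries heat-treated, so the groups follow the titles, the source names and the day. Heat libraries came from plants that were 1 day further on, and heat and that day cannot be told apart. The hour of sampling is not given in the sources used here. Levels are TPM, the abundance of a transcript per unit of length scaled to a common total in each library, so the number of reads behind a value is unknown. The labelled tissue was not checked against leaf markers, because the names at hand cover only 344 of the 68978 unigenes whose mean over the libraries reached 1 TPM. In whole leaves, fewer cells of a type and less RNA per cell cannot be told apart.

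WRKY proteins are a large family of plant transcription factors, named after a conserved stretch of amino acids in a DNA-binding domain that also holds a zinc finger. They bind short promoter elements known as W-boxes and can activate or repress the genes beside them. In model plants such as Arabidopsis they are known for roles in defence against pathogens, leaf senescence and responses to heat, drought and salt. MAP kinases and the hormones salicylic acid, jasmonic acid and ethylene act upstream of many of them. Which Arabidopsis or rice WRKY protein each of the 3 unigenes resembles was not determined here.

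The sequence at hand for these unigenes was the primer pair that the study used to measure TRINITY_DN54601_c2_g2 by quantitative RT-PCR. It is shown because the study lists it for this unigene. Whether it matches only that transcript was not checked, since the unigene sequences were not at hand. The study reports that trends matched between quantitative RT-PCR and sequencing for the genes it checked. Its values for single genes were not at hand.
TRINITY_DN54601_c2_g2 forward primer: cgaacagggcttctgaactc
TRINITY_DN54601_c2_g2 reverse primer: aacctcgaggggattgttct
Both primers have 20 bases, with a GC content of 55% in the forward and 50% in the reverse primer.

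TRINITY_DN54601_c2_g2 had the highest mean of the 3 in the control group. It was at 24.1, 17.4 and 22.3 TPM in control replicates 1 to 3 and at 2.85, 7.14 and 9.25 TPM in heat replicates 1 to 3. Each heat library was below each control library, and heat replicate 1 was the lowest. The mean was 21.3 ± 3.46 TPM (SD, n = 3) in control leaves and 6.41 ± 3.26 TPM (SD, n = 3) after heat, 3.32-fold lower. On the log2(TPM + 1) scale the difference was -1.69 (SE 0.36). Control replicates were close to each other, with an SD of 0.23 on that scale against a median SD of 0.31 over all unigenes tested. The heat replicates lay further apart, with an SD of 0.74 against a median of 0.38.

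TRINITY_DN69827_c0_g1 was at 14.6, 6.31 and 23.9 TPM in control replicates 1 to 3 and at 0.765, 1.71 and 2.84 TPM in heat replicates 1 to 3. The groups did not overlap, although the control libraries themselves differed widely. The mean was 14.9 ± 8.81 TPM (SD, n = 3) in control leaves and 1.77 ± 1.04 TPM (SD, n = 3) after heat, 8.43-fold lower. On the log2(TPM + 1) scale the difference was -2.42 (SE 0.45), the larger of the 2 negative differences. Its SD among controls was 0.89 on that scale, above that of 97.4% of the unigenes tested. In heat replicate 1 its level was above that of only 7.58% of the unigenes tested, whereas in control replicate 3 it was above that of 92.8%.

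TRINITY_DN66719_c0_g1 was at 3.62, 0.364 and 0.391 TPM in control replicates 1 to 3 and at 6.48, 10.03 and 14.4 TPM in heat replicates 1 to 3. Each heat library was above each control library, and control replicate 1 stood well above the other two. The mean was 1.46 ± 1.87 TPM (SD, n = 3) in control leaves and 10.3 ± 3.98 TPM (SD, n = 3) after heat, 7.08-fold higher. On the log2(TPM + 1) scale the difference was 2.39 (SE 0.48). Without control replicate 1 it was 2.98. Among the controls its SD was 1.01 on that scale, above that of 98.7% of the unigenes tested, while its SD after heat was 0.52.

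**Figure D1:**
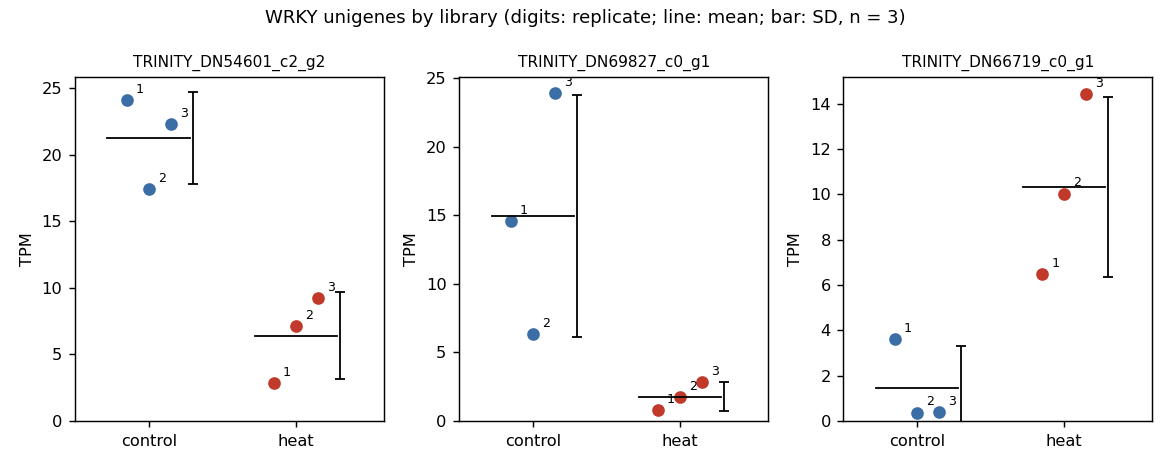
TPM of each WRKY unigene in the 3 control (blue) and 3 heat (red) libraries, with a point for each library, its replicate number beside it, a line at the mean and a bar for the SD (n = 3; the lower bar of TRINITY_DN66719_c0_g1 in control is cut at 0). No panel has overlapping groups: heat lies below control in the first and second panel and above it in the third.

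Across all 68978 unigenes tested, 11.2% had each heat library below each control library and 22% had each above. Of all unigenes tested, 10.1% were called by limma, 6% higher and 4.05% lower. A call needed a limma p below 0.05 after Benjamini-Hochberg adjustment together with a log2 difference of more than 1 either way. These shares are given as background, since the 3 WRKY unigenes were picked on the same contrast. The calls were 4142 higher and 2793 lower, and they became 2796 higher and 4148 lower when TPM was rescaled by the median ratio. That rescaling moved the median difference over all unigenes from 0.17 to -0.02 on the log2 scale. Under it the WRKY differences were -1.91 for TRINITY_DN54601_c2_g2, -2.61 for TRINITY_DN69827_c0_g1 and 2.23 for TRINITY_DN66719_c0_g1. Each therefore kept its sign when measured relative to the bulk of the unigenes.

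The heat libraries stood in the same order for all 3 WRKY unigenes, with replicate 1 the lowest and replicate 3 the highest. The log2 difference of each heat library from the control mean was -2.52, -1.44 and -1.11 for TRINITY_DN54601_c2_g2 in heat replicates 1 to 3. It was -3.00, -2.38 and -1.88 for TRINITY_DN69827_c0_g1, and 1.86, 2.42 and 2.90 for TRINITY_DN66719_c0_g1. Heat replicate 1 thus had the largest decrease of both falling unigenes and the smallest increase of the rising one. Of all unigenes tested, 19.2% (13216 of 68978) had this order of the heat libraries.

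The balance among the 3 unigenes turned over between the groups. This is a description, since their levels were part of the pattern they were chosen for. Their summed level was 42.3, 24.1 and 46.6 TPM in control replicates 1 to 3 and 10.1, 18.9 and 26.5 TPM in heat replicates 1 to 3. The sums overlapped, since heat replicate 3 was above control replicate 2. TRINITY_DN66719_c0_g1 made up 8.55%, 1.51% and 0.840% of the sum in control replicates 1 to 3 and 64.2%, 53.1% and 54.4% in heat replicates 1 to 3. It was thus the least abundant of the 3 in each control library and the most abundant in each heat library.

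TRINITY_DN54601_c2_g2 and TRINITY_DN69827_c0_g1 differed from each other as well. The ratio of the first to the second ranged from 0.932 to 2.76 without heat and from 3.26 to 4.18 with it. In control replicate 3, TRINITY_DN69827_c0_g1 was slightly the higher of the pair, so their order among controls did not hold in each library. After heat TRINITY_DN54601_c2_g2 was above TRINITY_DN69827_c0_g1 in 3 of 3 libraries. The share of TRINITY_DN69827_c0_g1 in the sum was 26.2% to 51.3% in control and 7.58% to 10.7% in heat libraries.

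**Figure D2:**
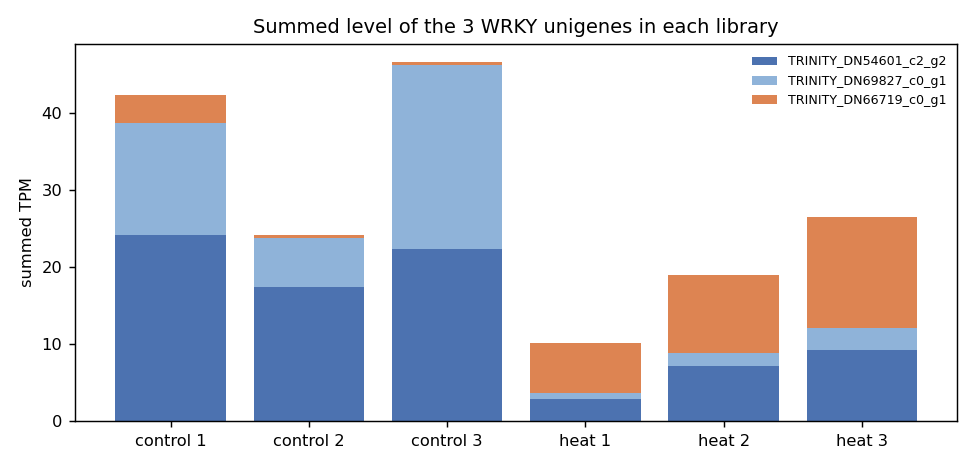
Stacked TPM of the 3 WRKY unigenes in each of the 6 libraries, with each colour standing for 1 unigene. The total bars overlap between the groups (24.1 to 46.6 TPM in control, 10.1 to 26.5 TPM in heat), while TRINITY_DN66719_c0_g1 goes from at most 8.55% of a control bar to at least 53.1% of a heat bar.

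Trinity groups transcripts that share sequence into a component, and unigenes of 1 component can be paralogs, alleles or fragments of the same gene. The 3 WRKY unigenes shared their components with 5 other unigenes, of which 2 had a mean of at least 1 TPM and could be tested. Whether those 5 encode WRKY proteins was not determined here. Salmon divides reads among similar transcripts, so the split of reads within a component is uncertain.

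Both tested unigenes lay in the component of TRINITY_DN66719_c0_g1, the WRKY unigene that was higher under heat. TRINITY_DN66719_c0_g2 was at 1.88, 1.13 and 1.201 TPM in control replicates 1 to 3 and at 5.19, 5.24 and 2.52 TPM in heat replicates 1 to 3. Its log2 difference was 1.11 (SE 0.32), and limma gave an adjusted p of 0.0513. TRINITY_DN66719_c0_g3 was at 7.64, 13.01 and 4.61 TPM in control replicates 1 to 3 and at 16.0, 23.8 and 15.8 TPM in heat replicates 1 to 3. Its log2 difference was 1.13 (SE 0.34), and limma gave an adjusted p of 0.0633. In both, the heat libraries lay above the control libraries without overlap, as in 22% of all unigenes tested. With limma, 0 of the 2 were called, against 6% called higher and 4.05% called lower among all unigenes tested. Both had an unadjusted limma p under 0.05 (0.00559 and 0.00806). The share of all unigenes with such an unadjusted p was not counted.

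These calls sat close to the threshold. Without heat replicate 3, TRINITY_DN66719_c0_g2 was called by limma with a difference of 1.38 and an adjusted p of 0.0437, and over all alternatives its adjusted p was 0.0437 to 0.148. Without control replicate 2, TRINITY_DN66719_c0_g3 was called with a difference of 1.46 and an adjusted p of 0.0393, and over all alternatives its adjusted p from limma was 0.0393 to 0.184.

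Within the component, the summed level of the 4 unigenes was 14.1, 14.7 and 6.45 TPM in control replicates 1 to 3 and 28.2, 39.1 and 33.2 TPM in heat replicates 1 to 3. Most of the control signal belonged to TRINITY_DN66719_c0_g3. The share of the WRKY unigene TRINITY_DN66719_c0_g1 was 25.7%, 2.48% and 6.07% in control and 23.01%, 25.7% and 43.5% in heat libraries. Its share in control replicate 1 was thus as large as in heat replicate 2. TRINITY_DN66719_c0_g4 was at or below 0.936 TPM in all 6 libraries.

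**Figure D3:**
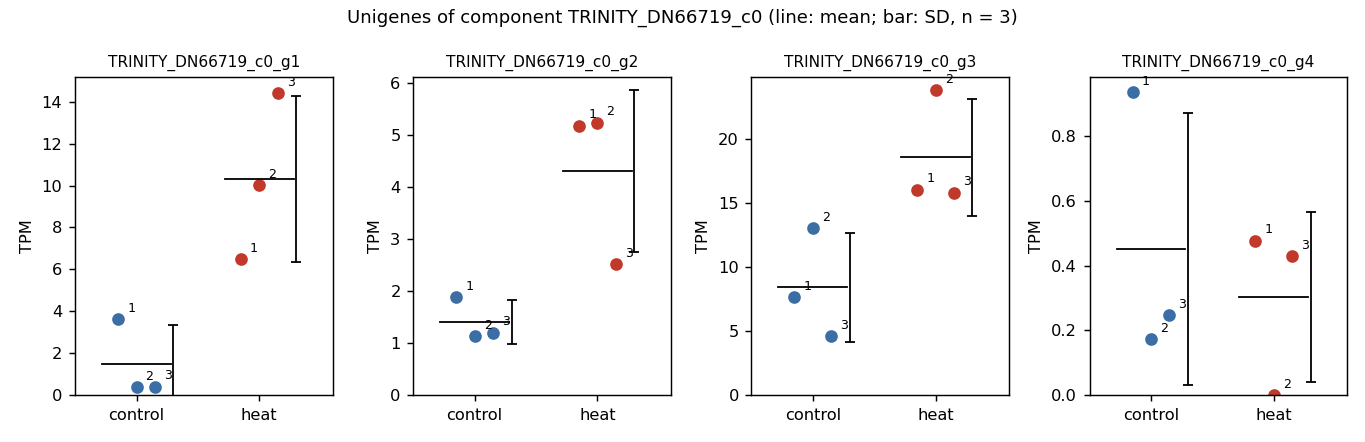
TPM of the 4 unigenes of the TRINITY_DN66719_c0 component in control (blue) and heat (red) libraries, each panel on its own axis, with a line at the mean and a bar for the SD (n = 3, cut at 0 in the first panel). The first 3 panels have heat above control without overlap, as had 22% of all unigenes tested. In the last panel the groups overlap below 1 TPM.

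The components of the 2 falling WRKY unigenes held little else. TRINITY_DN54601_c2_g2 made up 85.6% to 99.8% of its component in each library, beside TRINITY_DN54601_c2_g1 at 1.197 TPM or less. TRINITY_DN69827_c0_g1 made up the whole of its component except in heat replicate 1, where its share was 53.5%. There TRINITY_DN69827_c0_g2 was at 0.664 TPM, and it was listed at 0 in the other libraries. Neither component held a unigene that was higher under heat by as much as its WRKY unigene was lower.

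The unigene with the most similar profile was found for each WRKY unigene, as the smallest root mean square distance of centred log2(TPM + 1) over the 6 libraries. Since these profiles include the difference between the groups, a close profile also shares that difference by choice. For TRINITY_DN54601_c2_g2 it was TRINITY_DN73201_c3_g5, which has no name here, at a distance of 0.12 against a median of 1.09 over all unigenes tested. For TRINITY_DN69827_c0_g1 it was the unnamed TRINITY_DN53669_c1_g5 at 0.06 against a median of 1.48. That unigene was at 17.92, 8.74 and 28.01 TPM in control replicates 1 to 3 and at 1.06, 2.29 and 3.64 TPM in heat replicates 1 to 3. As in its WRKY partner, replicate 3 was the highest control and replicate 2 the lowest.

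For TRINITY_DN66719_c0_g1 the nearest was the unnamed TRINITY_DN56358_c1_g1 at 0.25 against a median of 1.32. It was at 28.7, 11.96 and 7.06 TPM in control replicates 1 to 3 and at 54.9, 92.6 and 131.2 TPM in heat replicates 1 to 3. Like the WRKY unigene, it was highest among controls in replicate 1 and highest after heat in replicate 3.

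Among the 344 named unigenes, TRINITY_DN66719_c0_g1 was nearest to TRINITY_DN68912_c1_g1, a Peroxidase 21, at 0.28, which ranked 2 among all unigenes. Class III peroxidases of this kind act in the plant cell wall on hydrogen peroxide and phenolic compounds. Next among the named was TRINITY_DN69452_c0_g1, a 14 kDa proline-rich protein DC2.15, at 0.35. The 2 nearest named to TRINITY_DN54601_c2_g2 were TRINITY_DN73823_c3_g4, an uncharacterized protein, at 0.14 and TRINITY_DN56096_c0_g1, a cytochrome P450, at 0.38. Those nearest to TRINITY_DN69827_c0_g1 were TRINITY_DN54325_c0_g2, an Expansin-A4-like protein that in other plants loosens cell walls, at 0.42, and TRINITY_DN39053_c0_g1, a PERK13 receptor-like kinase, at 0.58. The last 3 ranked 216, 99 and 426 among all unigenes, so many unnamed ones lay closer. The names come from text tables of the study. It lists the named unigenes nearest to the falling WRKY unigenes as lower predicted targets of miRNAs that were higher under heat. The named unigenes were thus partly picked for their change under heat.

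**Figure D4:**
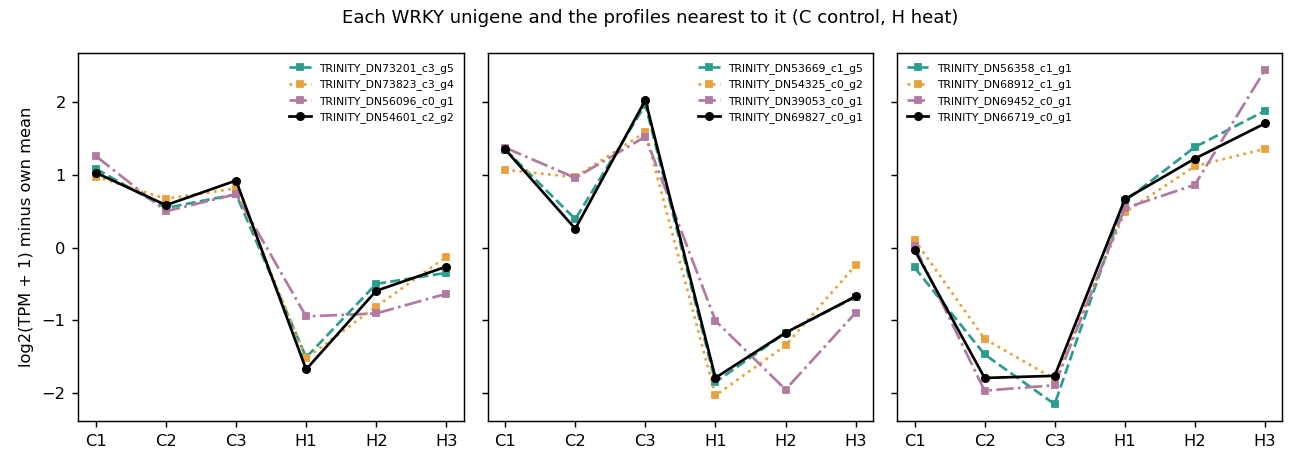
Centred log2(TPM + 1) of each WRKY unigene (black) with its nearest unigene of all (green) and its 2 nearest named unigenes (orange and purple) in control (C) and heat (H) libraries. The lines only join points of 1 unigene, as replicates have no order, and the green line lies closest to the black one in each panel (distances of 0.12, 0.06 and 0.25).

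Genes of the processes in which WRKY factors act elsewhere were set beside the 3 unigenes through 5 function lists. The lists came from the study's functional annotation of predicted miRNA targets, so they cover only part of each process. The study predicted these targets for miRNAs that differed under heat, so the lists are not a neutral sample of each process. They hold 46 unigenes, 30 of them tested. With limma, 1 of the 30 was called higher and 1 lower, against 6% and 4.05% of all unigenes, and 8 had an unadjusted p under 0.05. The share of all unigenes with such an unadjusted p was not counted. Nothing is therefore read from these counts, here or for the single lists below. The median log2 difference of the 30 was 0.04 against 0.17 over all unigenes tested. The list of sequence-specific DNA-binding unigenes, the function that WRKY factors have, held 15 unigenes, and of the 8 tested, 0 were called higher and 1 lower, with 4 at an unadjusted p under 0.05 in limma and differences from -1.67 to 0.88.

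The DNA-binding unigene that was lower, TRINITY_DN68441_c0_g1, was at 9.41, 10.2 and 20.3 TPM in control replicates 1 to 3 and at 4.61, 2.27 and 3.15 TPM in heat replicates 1 to 3. Its log2 difference of -1.67 (SE 0.34) had an adjusted p of 0.0146 in limma. It was no longer called without control replicate 3 (-1.35), heat replicate 2 (-1.49) or heat replicate 3 (-1.66).

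In the list of defence and pathogen response, 1 of 14 tested unigenes was called higher and 0 lower, with 2 at an unadjusted p under 0.05 in limma. The one that rose, TRINITY_DN63569_c0_g1, is annotated to the immune response. It was at 2.27, 3.89 and 2.16 TPM in control replicates 1 to 3 and at 45.9, 45.3 and 103.0 TPM in heat replicates 1 to 3, a log2 difference of 4.04 (SE 0.35) with an adjusted p of 0.000162 in limma. Unigenes of a potyvirus, a plant RNA virus, were higher in the heat libraries as well. They were taken from the study's table of differing unigenes as unigenes that rose. Their direction is therefore no evidence of its own. The 11 named for potyvirus polyproteins had a summed level of 0 to 0.0611 TPM among the controls, and heat replicates 1, 2 and 3 held 605.6, 4408.5 and 3419.7 TPM. Control replicate 3 was at 0 for all 11. Virus RNA thus moved with the groups in which the WRKY unigenes differed, and its part in their values was not tested.

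The lists of hormone signalling, MAP kinases and leaf senescence, drawn from predicted miRNA targets, had no call. Of the 10 hormone signalling unigenes tested, 0 were called and 0 had an unadjusted p under 0.05 in limma. The most abundant, TRINITY_DN75577_c0_g3 of ethylene signalling, was at 34.4 ± 5.28 TPM in control and 27.1 ± 7.77 TPM in heat libraries (SD, n = 3), and was not called (limma adjusted p = 0.414). Both unigenes of the MAP kinase list are annotated to MAP kinase kinase kinase activity. Of these 2, TRINITY_DN75173_c4_g1 was at 8.58 ± 2.01 TPM in control and 3.82 ± 0.556 TPM in heat libraries (SD, n = 3). Its log2 difference of -0.98 had an adjusted p of 0.0421 in limma and missed the fold threshold. It passed that threshold with a pseudocount of 0.1 (-1.13), with median-ratio (-1.18) or quantile scaling (-1.12), and without heat replicate 1 (-1.05). Of the 3 leaf senescence unigenes tested, 0 were called and 1 had an unadjusted p under 0.05 in limma. The one with the highest mean over all libraries, TRINITY_DN58501_c0_g1, was at 2.93 ± 0.681 TPM in control and 4.22 ± 0.389 TPM in heat libraries (SD, n = 3; limma adjusted p = 0.332). The one with the low p, TRINITY_DN48255_c0_g2, is named after its values were seen. It was at 0.806, 1.05 and 1.13 TPM in control replicates 1 to 3 and at 1.47, 6.99 and 6.59 TPM in heat replicates 1 to 3, without overlap. Its log2 difference of 1.41 (SE 0.43) had an adjusted p of 0.0638 in limma, and without heat replicate 1 it was called higher (1.97, limma adjusted p = 0.00334).

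Named transcription factors of other families came from the part at hand of the study's table of differing unigenes. Those taken from it were unigenes that rose, so their direction is no evidence of its own. The study itself describes heat stress factor genes that changed in opposite directions. Heat stress transcription factors bind heat shock elements, and the A class includes activators of heat shock genes. The A-2b unigene TRINITY_DN56759_c0_g3 was at 6.84 ± 1.22 TPM in control and 21.5 ± 4.27 TPM in heat libraries (SD, n = 3), a log2 difference of 1.52. The B-2c unigenes differed by 2.13 (TRINITY_DN52050_c0_g5), 1.91 (TRINITY_DN67348_c1_g4) and 1.48 (TRINITY_DN68161_c2_g1), and the last was not called (limma adjusted p = 0.119). The call of TRINITY_DN67348_c1_g4 was narrow (limma adjusted p = 0.0455) and was lost under 9 of 13 alternatives, and without heat replicate 1 its difference was 1.22. In all 4, heat replicate 1 was the highest heat library, whereas it was the lowest for all 3 WRKY unigenes. How many of all unigenes had heat replicate 1 as the highest was not counted.

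The most abundant of the other factors under heat was TRINITY_DN60907_c1_g1, an ethylene-responsive transcription factor 1, at 5.61, 47.7 and 39.5 TPM in heat replicates 1 to 3 and a mean of 0.843 TPM in control libraries. Its log2 difference was 3.77, and it shared with the WRKY unigenes its lowest heat level in replicate 1. TRINITY_DN54006_c2_g1, a GATA transcription factor 9, was at 9.78 ± 0.768 TPM in control and 25.9 ± 5.74 TPM in heat libraries (SD, n = 3), a log2 difference of 1.30.

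**Figure D5:**
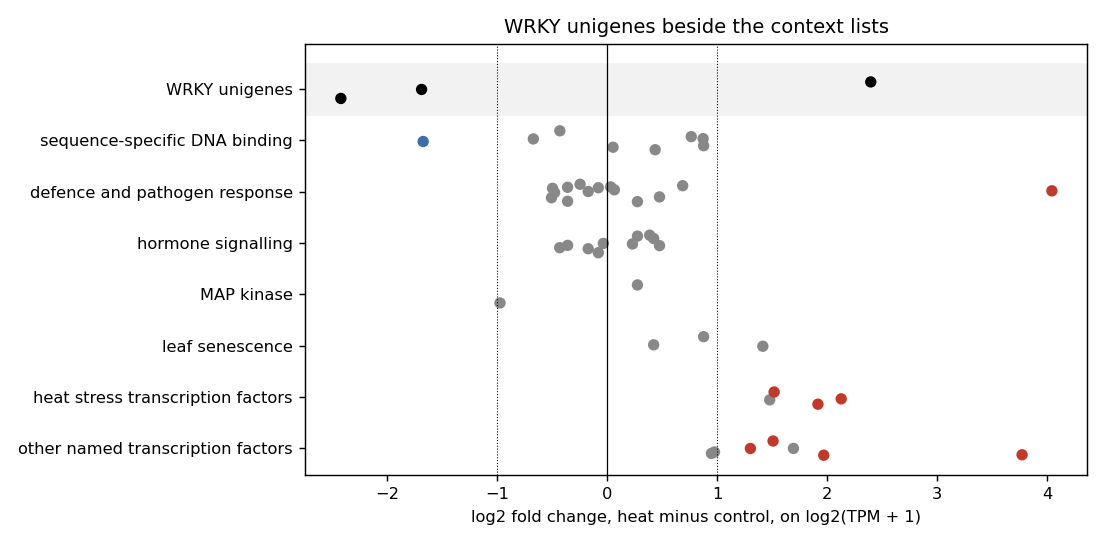
Log2 difference of heat minus control on log2(TPM + 1) for the WRKY unigenes (black, given without a test) and the tested unigenes of 7 lists, with called unigenes in red (higher) or blue (lower) and dotted lines at the fold threshold of 1. The WRKY points lie at -2.42, -1.69 and 2.39, as unigenes chosen for their difference, and 2 of the 30 unigenes in the next 5 lists were called. The lowest 2 lists were taken from a table of rises.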

How the data were processed

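The authors sequenced strand-specific leaf libraries, assembled unigenes with Trinity without a genome, estimated abundance with Salmon and deposited TPM per unigene. The miRNA values of the series were not used here, although the function lists came from its predicted miRNA targets. Differences were fitted on log2(TPM + 1) by limma 3.58.1 (R 4.3.3), using lmFit and then eBayes with its trend option, for 68978 unigenes whose mean over 6 libraries reached 1 TPM. On that scale the fold of weakly expressed unigenes comes out too small. No counts were used, so no count model was fitted, and the depth behind a value is unknown. Calls needed p below 0.05 after Benjamini-Hochberg adjustment and a log2 difference of more than 1 either way, the study's thresholds. The 3 WRKY unigenes and all lists were chosen with earlier results of these data known. Named were the WRKY unigenes, those of their components, the nearest profile of all and the 2 nearest named, from each function list the 2 largest called differences or else the most abundant unigene, the heat stress factors and the 2 most abundant other factors under heat. The labels give 3 biological replicates a group. The fit was repeated with each library left out, with a replicate block, with robust eBayes, with median-ratio or quantile scaling, without a filter, with 5 TPM required in the higher group, and with a pseudocount of 0.1. The procedure was tested on simulated data. These gave both groups the spread of the controls, whereas the median SD was larger among the heat libraries. Changes were planted only above a control level that TRINITY_DN66719_c0_g1 did not reach.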

Additional observations from a re-analysis of the deposited data

How the results depend on the processing

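None of the 39 values of the WRKY unigenes under 13 alternatives changed sign. For most of the alternatives this was fixed in advance. The filters, robust eBayes and the replicate block returned the same difference. Since the groups do not overlap, neither leaving out 1 library nor a pseudocount of 0.1 could reverse it. Only median-ratio and quantile scaling could have changed a sign. TRINITY_DN66719_c0_g1 went to 3.39 with a pseudocount of 0.1; 2 of its 3 control levels lie below 1 TPM. Without 1 library, the differences were -1.98 to -1.27 for TRINITY_DN54601_c2_g2, -2.90 to -2.02 for TRINITY_DN69827_c0_g1 and 2.10 to 2.98 for TRINITY_DN66719_c0_g1. Over all unigenes, 2207 were called higher and 1715 lower without the filter, where 207462 were tested, and 2634 were higher with the filter of 5 TPM. Leaving out 1 library gave 1472 to 6235 higher and 1367 to 3699 lower. Each library moved the higher count by over 1.5 times, with the rise only without heat replicate 1, and each except heat replicate 1 moved the lower count so. The cause was not tested. Of the 30 unigenes of the function lists, 2 were higher with the replicate block (TRINITY_DN48255_c0_g2 being the added one, limma adjusted p = 0.0487) and 1 to 3 without 1 library (3 without heat replicate 1), and 2 were lower with a pseudocount of 0.1, median-ratio or quantile scaling and 0 to 2 without 1 library (0 without control replicate 3, heat replicate 2 or heat replicate 3, and 2 without heat replicate 1). Of the 2 tested unigenes that share a component with a WRKY unigene, 1, TRINITY_DN66719_c0_g3, was higher with the replicate block (1.13, limma adjusted p = 0.0444) and 0 to 1 without 1 library (1 without control replicate 2 or heat replicate 3). The replicate numbers did not pair the libraries: same-numbered control and heat libraries had correlations of -0.14, -0.06 and 0.14 of their deviations. Pairs with unlike numbers had -0.16 to 0.25. With the block 3296 were called higher and 2479 lower. TPM hold no depth, so the counting error of the low WRKY levels is unknown.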
